A study of Mus musculus with 4 samples.

Results

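Genes of the NRF2 antioxidant response and of glutathione and peroxide metabolism were compared between tumors that expressed p62-EGFP (2 tumors) and tumors that expressed EGFP alone (2 tumors). The list held 41 genes, and 37 of them had a probe set annotated to that gene alone, out of 12393 genes measured in this way on the array. Each gene was represented by its probe set of highest mean signal. The 4 without such a probe set, Prdx1, Prdx5, Prdx6 and G6pdx, were not analysed here. All 4 tumors grew under the skin of nude (NCR Nu/Nu) mice from immortalized mouse kidney epithelial cells (iBMK) that were ATG5-/- and expressed Bcl-2. Both groups therefore lacked Atg5, a gene needed to form autophagosomes, and differed in the labels only by p62 fused to EGFP against EGFP alone. The submitters describe the cell lines as isogenic. No source used here says whether the 2 tumors of each group grew in different mice or from different cultures, so p-values measure only the spread between these tumors, which may be technical. Tumor RNA also holds RNA of mouse host cells, and fewer cells of a type cannot be told apart from less RNA per cell.

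NRF2, the product of Nfe2l2, is a transcription factor that KEAP1 marks for degradation in unstressed cells. When electrophiles or oxidants modify KEAP1, or when p62 binds it, NRF2 accumulates, pairs with a small MAF protein such as MAFG and binds antioxidant response elements near genes for glutathione synthesis, detoxification and NADPH supply. p62 is itself degraded by autophagy, which is why its excess in autophagy-defective cells is a question for this pathway. The transcription factor's activity is controlled largely through its protein level, which an array does not measure.

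Values are MAS5 signals on a linear scale, given for tumor 1 and then tumor 2 of a group unless stated otherwise. Differences are on the scale of log2(signal + 16), p62-EGFP minus EGFP, with standard errors and tests from limma over all 13576 probe sets bright enough to test (7846 genes). The median signal lay between 57.7 and 61.0 on the 4 arrays. EGFP tumor 2 stood apart: the summed signal of 12 macrophage markers was 2770.2 and 2906.7 in p62-EGFP tumors, against 1494.1 and 12734.9 in EGFP tumors, and none of these markers was under 20 on any array. The summed signal of 8 epithelial markers was 1471.1 and 2162.4 in p62-EGFP tumors, against 1489.8 and 700.7 in EGFP tumors. Krt18 and Epcam, an epithelial keratin and an adhesion molecule, were measured in every tumor (253.9 or more and 108.9 or more), whereas the keratin gene Krt7 was at 8.2 or below. Of the 8 epithelial markers, 3 (Krt19, Epcam and the dim Cldn7) had both p62-EGFP values above both EGFP values, and 0 had both below. Of all genes tested, 26.4% were above. The 10 skeletal muscle markers summed to 4899.1 and 50.1 in p62-EGFP tumors, against 39.4 and 776.5 in EGFP tumors. Markers of endothelium and of mast cells separated the groups: 7 of 8 endothelial markers (sums 201.7 and 257.1 against 411.7 and 532.7) and 5 of 6 mast cell markers (sums 194.3 and 127.2 against 652.4 and 565.6) had both p62-EGFP values below both EGFP values, where 22.1% of all genes tested did. Their part in the results below was not tested. The ratio of 3' to 5' signal of Gapdh, a sign of RNA integrity, lay between 0.707 and 0.74 on all arrays, and that of Actb was 1.37 and 1.55 in p62-EGFP tumors, against 1.39 and 1.28 in EGFP tumors.

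None of the antioxidant genes passed the test for a difference between the groups. Of the 37 measured genes, 36 were bright enough to test and 0 passed at an adjusted p below 0.05 (limma, Benjamini-Hochberg over all probe sets), where 12 probe sets passed in all, or 0.0884%, and 0.051% of genes. Gsta4, a transferase for lipid aldehydes, was too dim to test, at 30.2 and 24.8 in p62-EGFP tumors and 31.8 and 28.8 in EGFP tumors. Adjusted p-values of the 36 ran from 0.193 for Gstm5 to 0.978 for Prdx4. At an unadjusted p below 0.05, 4 genes were higher (11.1%, against 8.5% of all genes tested) and 3 were lower (8.33%, against 6.3%). The signal was higher in both p62-EGFP tumors than in both EGFP tumors for 13 of the 36 genes (36.1%, against 26.4% of all genes) and lower for 6 (16.7%, against 22.1%). The median difference of the 36 was 0.07, from -0.60 for Gclm to 0.72 for Gstm5, beside a median of 0.01 over all genes tested. With the median of each gene's chromosome subtracted, the median of the 36 was -0.004. Within groups the median gap between tumors was 0.15 for the p62-EGFP pair and 0.23 for the EGFP pair, and for all genes tested it was 0.14 and 0.27.

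**Figure D1:**
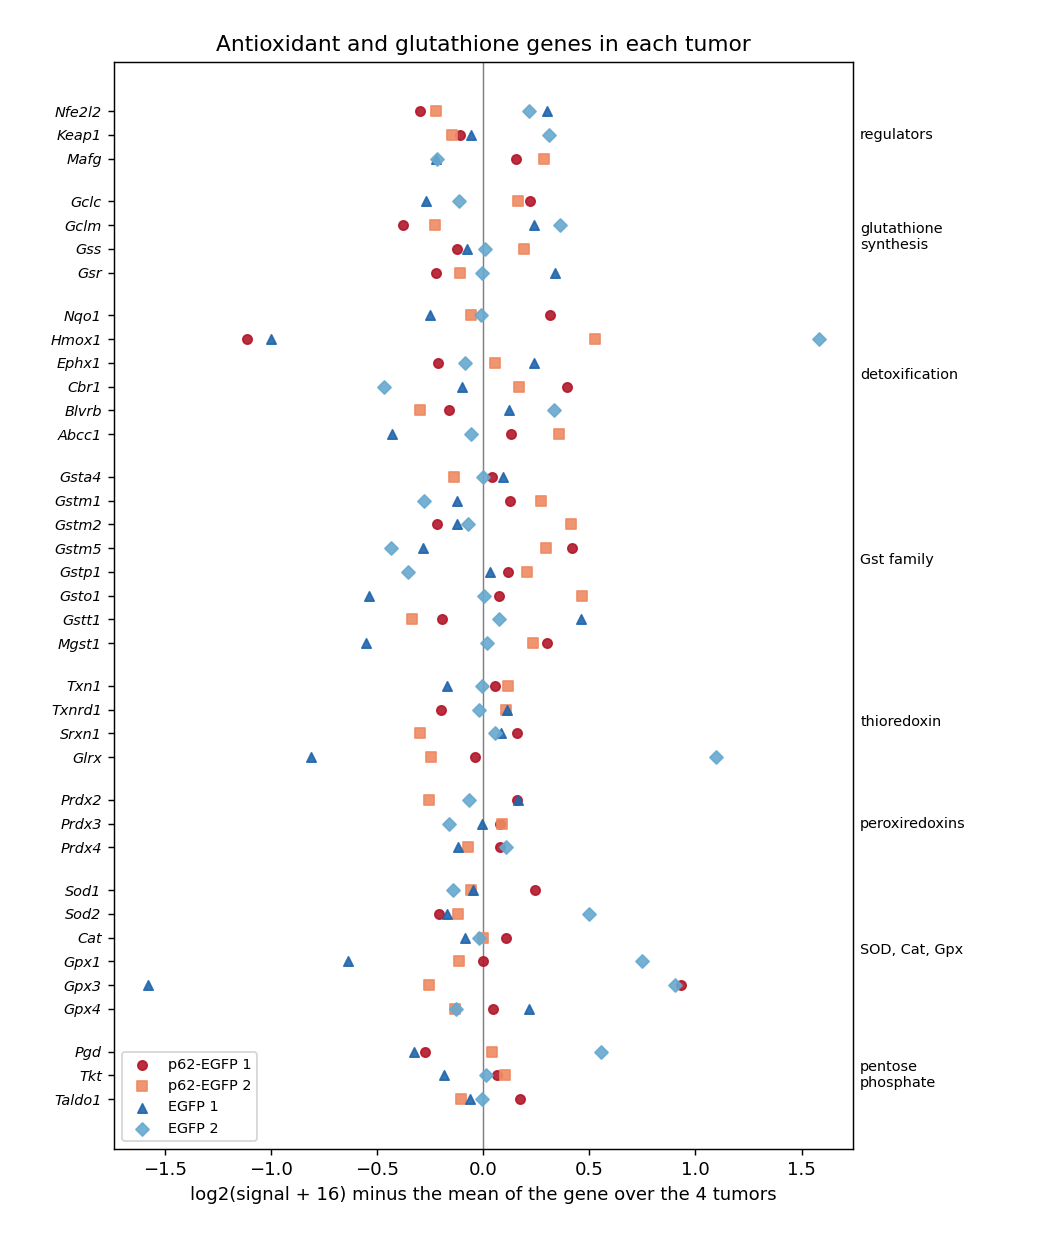
Each row is a gene, and each point is a tumor's log2(signal + 16) minus the gene's mean over the 4 tumors, with p62-EGFP tumors in red and orange and EGFP tumors in blue. Red and orange points lie to the right of both blue points for 13 of the 36 tested genes and to the left of both for 6, and Hmox1, Glrx, Gpx1 and Gpx3 have the widest gaps between the EGFP tumors.

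Among the subgroups, the Gst family stood farthest from 0, with a median difference of 0.40 over 7 tested genes. The other medians were -0.25 for the 3 regulators, -0.13 for the 4 genes of glutathione synthesis and recycling, 0.05 for the 6 detoxification enzymes, -0.12 for the 4 thioredoxin and glutaredoxin genes, 0.01 for the 3 peroxiredoxins, 0.01 for the 6 superoxide dismutase, catalase and glutathione peroxidase genes and 0.07 for the 3 pentose phosphate genes. The Gst median was not farthest from 0 without EGFP tumor 1, where it was 0.27 beside -0.44 for the regulators, or without EGFP tumor 2, where it was 0.33 beside 0.38 for the detoxification enzymes. In the Gst family 5 of the 7 had both p62-EGFP tumors above both EGFP tumors, where 26.4% of all genes did, and 1 had both below, where 22.1% of all genes did. No set test was made, and the subgroups share the same 4 arrays.

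The regulators of the pathway differed in direction. Nfe2l2 read 229.9 and 243.8 in p62-EGFP tumors, against 357.2 and 336.1 in EGFP tumors. Both p62-EGFP tumors were lower than both EGFP tumors, with a difference of -0.52 (SE 0.15, 95% interval -0.90 to -0.14, 0.697-fold), and the gene did not pass (limma, unadjusted p = 0.0165, adjusted p = 0.257). Against EGFP tumor 1 alone and EGFP tumor 2 alone its difference was -0.56 and -0.48, so it did not rest on either. Keap1, the adaptor that presents NRF2 for ubiquitination, read 137.7 and 133.6 in p62-EGFP tumors, against 143.2 and 189.3 in EGFP tumors. Its difference of -0.25 (SE 0.19, limma adjusted p = 0.566) rested mostly on EGFP tumor 2, and without that tumor it was -0.07. A dimmer Keap1 probe set gave -0.20. Mafg, a small MAF partner of NRF2, read 207.5 and 228.6 in p62-EGFP tumors, against 156.3 and 156.4 in EGFP tumors, a difference of 0.44 (SE 0.16, limma adjusted p = 0.316). Its dimmer probe set gave 0.49, also with no overlap. Mafg lies on chromosome 11, whose 697 tested genes had a median difference of 0.30, and relative to that median it stood at 0.14.

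RefSeq promoter windows of GRCm38.p6 (250 bases before to 50 bases after the start site) were matched for 35 of the 41 genes and searched on both strands for the core letters of the antioxidant response element, TGACNNNGC. The letters were present for 11 of the 35 genes, or 31.4%, whereas 14% of all 27025 genes with a window hold them. Counted by window, 11 of the 45 windows of these genes and 12.4% of all 32851 windows hold them. No window was matched for Abcc1, Gclc, Gsr, Gsta4, Hmox1 and Prdx6. The 11 genes with the letters were Nfe2l2, Mafg, Gclm, Gstm5, Mgst1, Srxn1, Txnrd1, Pgd, Sod1, Prdx1 and G6pdx. Of the 9 that were tested on the array, 3 had both p62-EGFP tumors above both EGFP tumors, 2 had both below and 4 overlapped, where 26.4% of all genes were above and 22.1% below, and the median difference of the 9 was -0.09. The windows of 6 are shown because genes with the same core letters stood on opposite sides. Nfe2l2 and Gclm were lower in both p62-EGFP tumors, Mafg, Gstm5 and Mgst1 were higher in both, and Srxn1 overlapped. Each runs 5' to 3' on the strand of its gene, with the matched letters in capitals. In Nfe2l2 and Gstm5 the match is on the printed strand, and in the other 4 it is on the opposite strand and stands as the reverse complement.
Nfe2l2, chr2:75704614-75704913, minus strand: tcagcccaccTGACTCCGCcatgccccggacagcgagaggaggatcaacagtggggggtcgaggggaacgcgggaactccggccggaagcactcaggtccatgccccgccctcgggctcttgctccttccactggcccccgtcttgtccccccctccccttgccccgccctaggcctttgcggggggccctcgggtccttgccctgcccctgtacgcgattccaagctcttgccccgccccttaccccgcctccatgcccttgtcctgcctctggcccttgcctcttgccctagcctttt
Mafg, chr11:120633498-120633797, minus strand: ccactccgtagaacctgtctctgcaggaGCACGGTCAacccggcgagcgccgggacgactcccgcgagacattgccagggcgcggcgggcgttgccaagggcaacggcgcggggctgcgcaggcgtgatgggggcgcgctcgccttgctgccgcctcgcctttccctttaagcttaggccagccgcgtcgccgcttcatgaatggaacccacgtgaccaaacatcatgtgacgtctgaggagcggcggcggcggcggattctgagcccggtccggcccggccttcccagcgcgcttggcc
Gclm, chr3:122245307-122245606, plus strand: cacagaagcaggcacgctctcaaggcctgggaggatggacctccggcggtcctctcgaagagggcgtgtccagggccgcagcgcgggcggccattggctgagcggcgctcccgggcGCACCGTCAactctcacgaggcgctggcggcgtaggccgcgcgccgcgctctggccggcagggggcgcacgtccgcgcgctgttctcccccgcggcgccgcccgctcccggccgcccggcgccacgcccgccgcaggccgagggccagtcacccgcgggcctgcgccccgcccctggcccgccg
Gstm5, chr3:107895604-107895903, plus strand: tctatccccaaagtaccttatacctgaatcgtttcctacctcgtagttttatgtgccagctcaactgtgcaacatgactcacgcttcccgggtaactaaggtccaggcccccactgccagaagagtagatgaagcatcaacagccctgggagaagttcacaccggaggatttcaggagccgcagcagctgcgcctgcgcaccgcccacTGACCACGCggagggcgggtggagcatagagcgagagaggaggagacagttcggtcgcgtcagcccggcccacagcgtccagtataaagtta
Mgst1, chr6:138140277-138140576, plus strand: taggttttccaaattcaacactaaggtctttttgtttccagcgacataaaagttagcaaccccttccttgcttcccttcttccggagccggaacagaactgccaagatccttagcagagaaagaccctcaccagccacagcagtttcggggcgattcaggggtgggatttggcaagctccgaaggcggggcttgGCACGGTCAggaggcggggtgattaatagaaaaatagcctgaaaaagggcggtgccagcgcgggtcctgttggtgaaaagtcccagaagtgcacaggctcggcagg
Srxn1, chr2:152105274-152105573, plus strand: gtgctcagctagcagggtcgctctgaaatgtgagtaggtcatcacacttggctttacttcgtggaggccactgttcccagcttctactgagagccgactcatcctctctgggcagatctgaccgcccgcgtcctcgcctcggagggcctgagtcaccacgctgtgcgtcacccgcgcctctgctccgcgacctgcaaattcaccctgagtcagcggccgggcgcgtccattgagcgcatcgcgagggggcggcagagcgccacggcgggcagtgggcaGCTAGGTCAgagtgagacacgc
The match began at base -240 from the start site in Nfe2l2, -222 in Mafg, -134 in Gclm, -42 in Gstm5, -56 in Mgst1 and 29 in Srxn1. Those of Mafg and Mgst1 had the same 9 letters, GCACGGTCA. A match is a description of letters and does not show that NRF2 binds there.

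In glutathione synthesis the subunits of the rate-limiting enzyme stood on opposite sides. Gclc, the catalytic subunit of glutamate-cysteine ligase, read 435.8 and 419.5 in p62-EGFP tumors, against 306.0 and 342.9 in EGFP tumors. Gclm, its modifier subunit, whose promoter window is printed above, read 142.6 and 160.1 in p62-EGFP tumors, against 227.0 and 249.1 in EGFP tumors. Gclc was higher and Gclm lower in both p62-EGFP tumors, with differences of 0.38 (SE 0.15) and -0.60 (SE 0.16). Neither passed (limma adjusted p = 0.340 and 0.243), and at unadjusted p they stood at 0.0472 and 0.0129. A second Gclc probe set also had no overlap and a difference of 0.44, whereas Gclm had only 1 probe set. Against EGFP tumor 1 alone the differences were 0.46 for Gclc and -0.54 for Gclm, and against EGFP tumor 2 alone 0.31 and -0.67. Without EGFP tumor 1 Gclm passed (limma adjusted p = 0.0234), in a fit that has 1 EGFP tumor only.

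The other genes of glutathione supply were closer to the spread between tumors. Gss, glutathione synthetase, read 40.6 and 54.5 in p62-EGFP tumors, against 42.4 and 45.9 in EGFP tumors, and the groups overlapped (difference 0.07, 95% interval -0.45 to 0.60). Gsr, which returns oxidized glutathione to its reduced form, read 145.4 and 158.7 in p62-EGFP tumors, against 222.3 and 171.6 in EGFP tumors. The groups did not overlap, with a difference of -0.33 (SE 0.19, limma adjusted p = 0.461) and -0.42 in a second probe set. It was -0.16 without EGFP tumor 1 and -0.51 without EGFP tumor 2. Gsr lies on chromosome 8, whose 417 tested genes had a median difference of -0.22, and relative to that median Gsr stood at -0.11.

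The classical inducible enzymes did not separate the groups. Nqo1, a quinone reductase often used as a readout of NRF2 activity, read 73.8 and 53.4 in p62-EGFP tumors, against 44.7 and 55.6 in EGFP tumors. The groups overlapped, and the difference of 0.26 had a 95% interval of -0.30 to 0.82 (limma adjusted p = 0.607). With p62-EGFP tumor 1 left out it was 0.074, and with tumor 2 left out 0.45. Like Gsr, Nqo1 lies on chromosome 8, and relative to the median of that chromosome it stood at 0.48. Hmox1, heme oxygenase 1, read 36.2 and 146.4 in p62-EGFP tumors, against 40.5 and 322.0 in EGFP tumors. Tumor 1 was low and tumor 2 was high in both groups, so the difference of -0.59 had an interval of -2.98 to 1.81 and turned to 0.71 without EGFP tumor 2. Ephx1, microsomal epoxide hydrolase, read 140.0 and 171.6 in p62-EGFP tumors, against 197.3 and 154.3 in EGFP tumors, which overlapped (difference -0.16).

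Of the other detoxification genes, 3 had no overlap. Cbr1, a carbonyl reductase, read 295.5 and 250.5 in p62-EGFP tumors, against 204.7 and 155.5 in EGFP tumors, a difference of 0.57 (SE 0.20, limma adjusted p = 0.311). Abcc1, which exports glutathione conjugates, read 250.7 and 296.6 in p62-EGFP tumors, against 164.8 and 217.8 in EGFP tumors. Its difference was 0.49 (SE 0.20, limma adjusted p = 0.350), and a dimmer probe set gave 0.53. Against EGFP tumor 1 alone it was 0.68 and against EGFP tumor 2 alone 0.30. Both genes lie on chromosome 16, with a median difference of 0.17 over 261 tested genes, and relative to it Cbr1 stood at 0.40 and Abcc1 at 0.32. Blvrb, biliverdin reductase B, which acts downstream of heme breakdown, read 175.7 and 158.7 in p62-EGFP tumors, against 217.7 and 254.7 in EGFP tumors. Both p62-EGFP tumors were lower, by a difference of -0.46 (SE 0.17, limma adjusted p = 0.325).

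Gstm5 had the smallest p of the tested antioxidant genes and, with the pseudocount of 16, the largest difference; with a pseudocount of 1 that of Gpx3 was larger (1.26 against 0.74), as were those of other genes with 1 tumor left out. This mu class glutathione transferase read 815.4 and 747.7 in p62-EGFP tumors, against 493.9 and 443.6 in EGFP tumors. Both p62-EGFP tumors were higher, by 1.65-fold, a difference of 0.72 (SE 0.14, 95% interval 0.37 to 1.07). It did not pass (limma, unadjusted p = 0.0029, adjusted p = 0.193). The difference was between 0.64 and 0.79 whichever tumor was left out, between 0.67 and 0.75 under the scaling, pseudocount and filter alternatives, and 0.68 relative to chromosome 3. Gstm1 of the same gene cluster read 228.9 and 254.7 in p62-EGFP tumors, against 189.6 and 168.7 in EGFP tumors, also without overlap (difference 0.40, SE 0.17, limma adjusted p = 0.350). A second bright Gstm1 probe set gave 0.61. Gstm2 read 158.8 and 255.0 in p62-EGFP tumors, against 170.8 and 177.5 in EGFP tumors, and its groups overlapped. Mu class genes are closely related in sequence, and their probe sets can share signal.

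Of the 4 transferases of other classes that were tested, 3 were higher in both p62-EGFP tumors, where 26.4% of all genes were, and none passed. These 3 are part of the 5 counted for the family. Mgst1, a membrane-bound transferase that also reduces lipid peroxides, read 827.5 and 791.2 in p62-EGFP tumors, against 451.4 and 678.0 in EGFP tumors (difference 0.54, SE 0.21, limma adjusted p = 0.346). Gsto1, an omega class enzyme with thioltransferase activity, read 394.0 and 521.7 in p62-EGFP tumors, against 252.6 and 374.5 in EGFP tumors (difference 0.54, SE 0.25, limma adjusted p = 0.386). For both genes EGFP tumor 1 was the lowest, and against EGFP tumor 2 alone the differences were 0.25 and 0.27. A second Gsto1 probe set overlapped, with a difference of 0.36. Gstp1, the pi class enzyme, read 1105.7 and 1175.1 in p62-EGFP tumors, against 1041.3 and 792.0 in EGFP tumors (difference 0.32, SE 0.16, limma adjusted p = 0.412). There EGFP tumor 2 was the lowest, and without it the difference was 0.13. Gstt1, of the theta class, was lower in both. It read 37.3 and 32.4 in p62-EGFP tumors, against 67.9 and 48.2 in EGFP tumors, a difference of -0.53 (SE 0.22, limma adjusted p = 0.354) that was -0.34 without EGFP tumor 1. The count of 5 Gst genes above was also 5 under quantile normalization and median centring, where 27.5% and 29.4% of all genes were above.

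**Figure D2:**
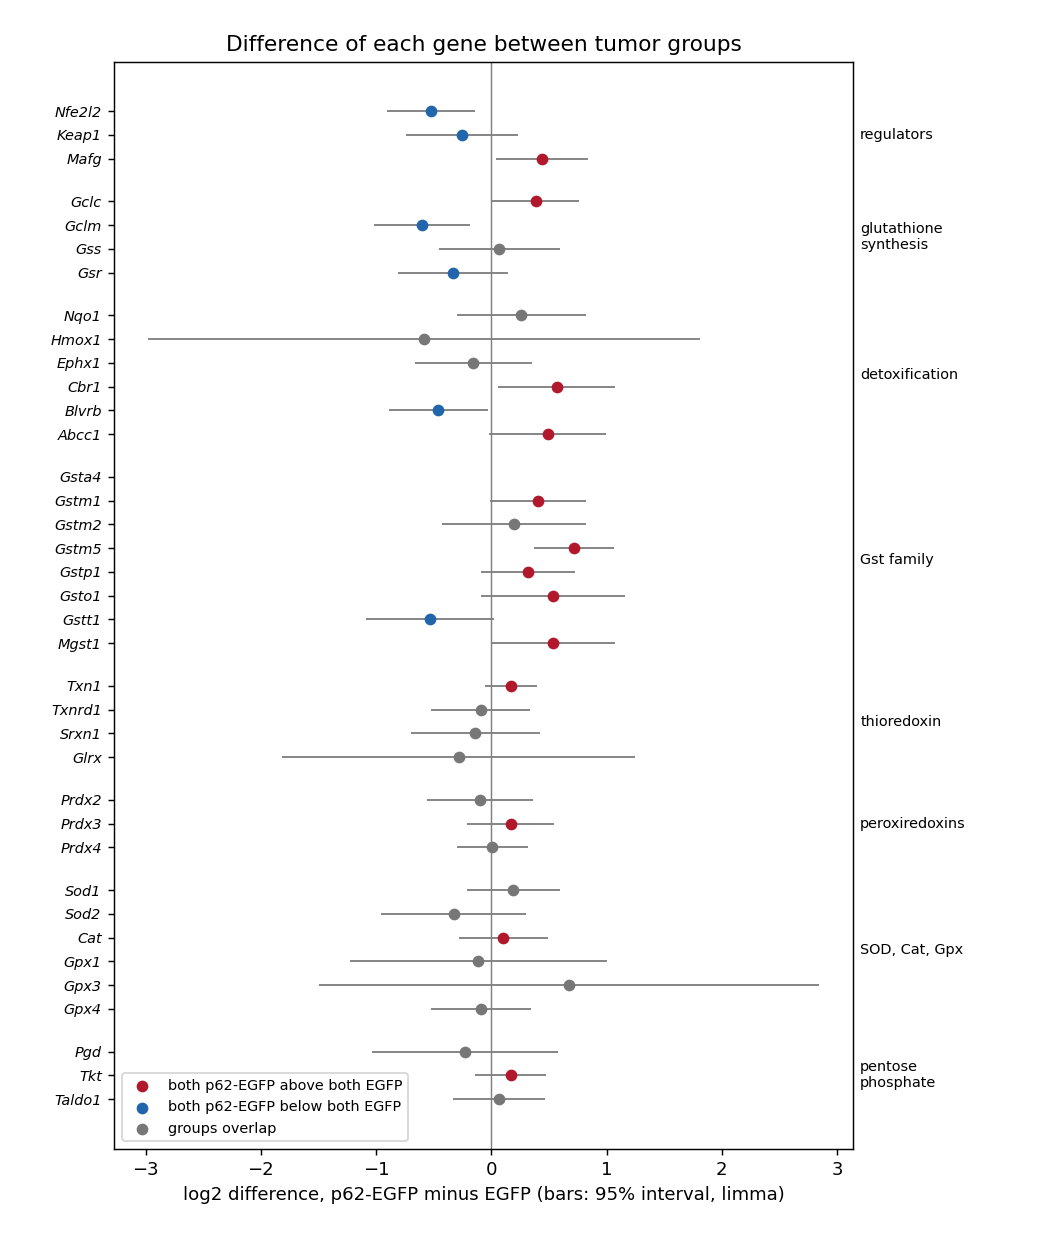
Points give the log2 difference, p62-EGFP minus EGFP, for each tested gene, with 95% intervals from limma, and colour tells whether the tumors of the groups overlap; Gsta4 was not tested. The Gst family lies mostly to the right, with Gstm5 at 0.72, whereas Hmox1, Glrx, Gpx1 and Gpx3 have the widest intervals.

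Thioredoxin, thioredoxin reductase and sulfiredoxin differed little. Txn1, the protein disulfide reductant thioredoxin, read 2822.9 and 2943.5 in p62-EGFP tumors, against 2407.1 and 2705.7 in EGFP tumors. The groups did not overlap (difference 0.18, SE 0.09, limma adjusted p = 0.424), but with quantile normalization the difference was 0.00. Txnrd1, which reduces thioredoxin with NADPH, read 380.4 and 473.9 in p62-EGFP tumors, against 476.2 and 433.0 in EGFP tumors, and overlapped (difference -0.09, 95% interval -0.52 to 0.34). Srxn1, which repairs hyperoxidized peroxiredoxins, read 68.1 and 45.4 in p62-EGFP tumors, against 63.8 and 62.3 in EGFP tumors (difference -0.14, interval -0.70 to 0.42). Glrx, the glutathione-dependent reductase glutaredoxin, read 94.8 and 79.9 in p62-EGFP tumors, against 48.8 and 227.1 in EGFP tumors, so the p62-EGFP tumors lay between the EGFP tumors.

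The 3 peroxiredoxins measured, enzymes that reduce peroxides through a reactive cysteine, had differences between -0.10 and 0.17. Prdx3, the mitochondrial member, read 355.9 and 357.7 in p62-EGFP tumors, against 334.7 and 298.4 in EGFP tumors, without overlap (difference 0.17, SE 0.15, limma adjusted p = 0.629). Prdx2, a cytosolic member, read 1004.2 and 749.9 in p62-EGFP tumors, against 1008.2 and 856.2 in EGFP tumors, and overlapped. Prdx4, the member of the endoplasmic reticulum, depended on the probe set. Its brightest read 1696.2 and 1528.6 in p62-EGFP tumors, against 1475.8 and 1732.9 in EGFP tumors, a difference of 0.01. A second probe set read 791.2 and 592.3 in p62-EGFP tumors, against 326.9 and 419.7 in EGFP tumors, with no overlap and a difference of 0.86 (limma adjusted p = 0.221). The dimmest gave 0.40, also with no overlap. Of the 21 other tested probe sets of the listed genes, 19 were within 0.3 of the probe set used, and the 2 that were not are these of Prdx4.

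Among superoxide dismutases, catalase and glutathione peroxidases, only Cat had no overlap. Cat, peroxisomal catalase, read 285.0 and 262.8 in p62-EGFP tumors, against 247.4 and 259.4 in EGFP tumors, a difference of 0.10 (SE 0.15), and its second probe set gave 0.00. Sod1, the cytosolic dismutase, read 689.1 and 556.2 in p62-EGFP tumors, against 558.9 and 522.8 in EGFP tumors (difference 0.19). Gpx4, which reduces phospholipid hydroperoxides, read 633.7 and 558.9 in p62-EGFP tumors, against 715.0 and 560.6 in EGFP tumors (difference -0.09). For Sod1 and Gpx4 the difference was smaller than the gap between tumors of a group, and a dimmer Gpx4 probe set gave -0.23 without overlap.

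For Gpx1, Gpx3 and the brightest probe set of Sod2, 1 EGFP tumor lay far from the other. Gpx1, the main cytosolic glutathione peroxidase, read 652.1 and 601.8 in p62-EGFP tumors, against 414.0 and 1104.6 in EGFP tumors. Sod2, the mitochondrial dismutase, read 337.1 and 358.9 in p62-EGFP tumors, against 346.3 and 559.3 in EGFP tumors. A second Sod2 probe set, nearly as bright, read 332.0 and 374.9 in p62-EGFP tumors, against 375.5 and 408.0 in EGFP tumors. It was lower in both p62-EGFP tumors, with a difference of -0.14, and did not show the wide gap between EGFP tumors. Gpx1 and Sod2 were highest in EGFP tumor 2, as were Hmox1, Glrx and Pgd. Gclm (249.1), Blvrb (254.7), Keap1 (189.3) and the brightest Prdx4 probe set (1732.9) were also highest there, with narrower gaps between the EGFP tumors. In that tumor the 12 macrophage markers summed to 12734.9, against 1494.1 to 2906.7 in the other tumors, and the part of host cells in these values was not tested. Hmox1 also differed between p62-EGFP tumors 1 and 2 (36.2 and 146.4), where the macrophage sums were 2770.2 and 2906.7. Gpx3, a secreted glutathione peroxidase, read 111.0 and 39.9 in p62-EGFP tumors, against 6.3 and 108.5 in EGFP tumors, a difference of 0.68 with an interval of -1.49 to 2.85 that was 1.26 with a pseudocount of 1 and 0.29 with a pseudocount of 64. It was lowest in EGFP tumor 1, where 7 fibroblast markers summed to 1015.6, against 2057.9 and 2830.9 in p62-EGFP tumors and 3379.9 in EGFP tumor 2. The skeletal muscle sums were 4899.1 and 50.1 in p62-EGFP tumors, against 39.4 and 776.5 in EGFP tumors, and like Gpx3 they were lowest in EGFP tumor 1 and highest in p62-EGFP tumor 1. The part of either cell type in the Gpx3 values was not tested. Catalase, peroxiredoxin 2, glutathione peroxidase 1 and biliverdin reductase B are also abundant in red cells, and the 5 erythroid markers measured summed to between 20 and 35.6 on every array.

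**Figure D3:**
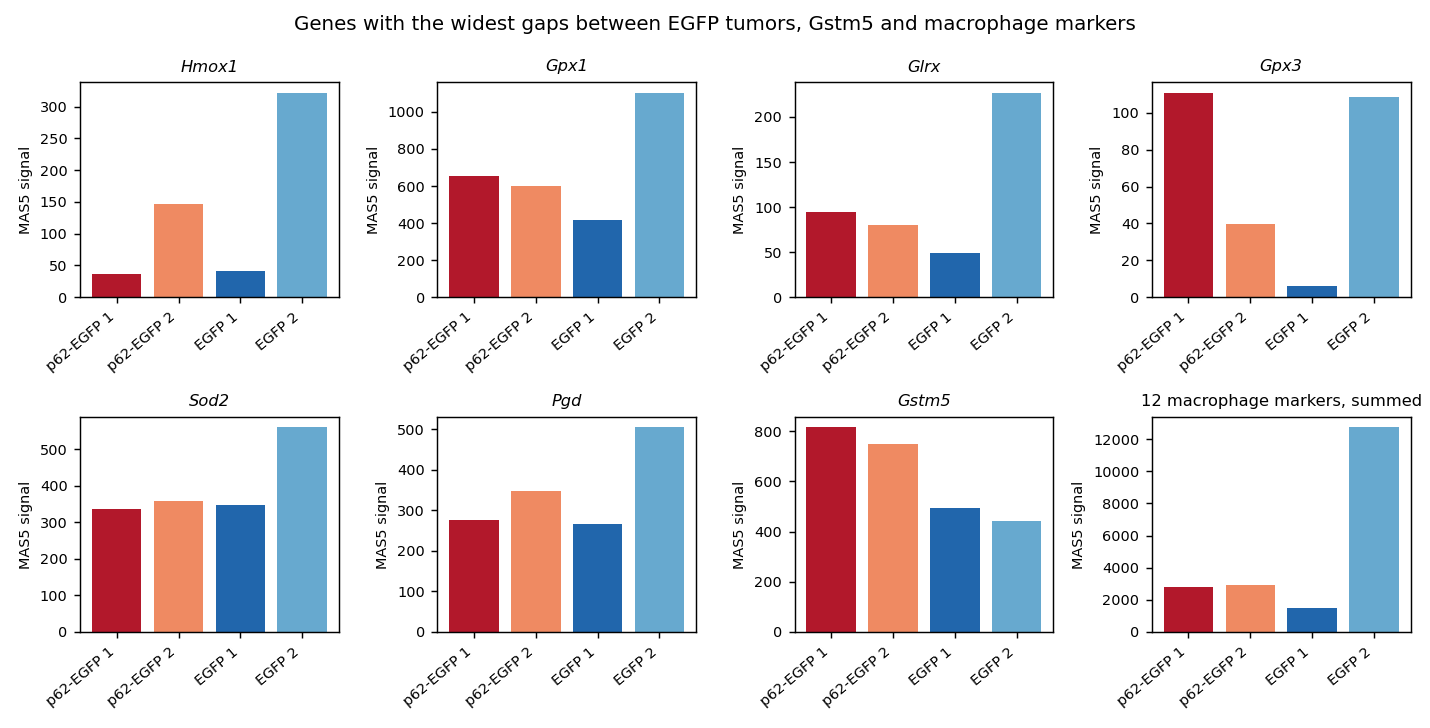
Bars give the MAS5 signal in each tumor for the 6 listed genes with the widest gap between EGFP tumors, for Gstm5, and for the sum of 12 macrophage markers. Hmox1, Gpx1, Glrx, Sod2, Pgd and the macrophage sum are highest in EGFP tumor 2, whereas Gstm5 reads 747.7 or more in p62-EGFP tumors and 493.9 or less in EGFP tumors.

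The pentose phosphate enzymes, which supply NADPH for reduction of glutathione and thioredoxin, showed no common direction. Tkt, transketolase, read 1109.6 and 1138.2 in p62-EGFP tumors, against 930.4 and 1069.5 in EGFP tumors. The groups did not overlap (difference 0.17, SE 0.12, limma adjusted p = 0.547), though its dimmer probe set gave 0.00. Taldo1, transaldolase, read 551.0 and 451.5 in p62-EGFP tumors, against 465.6 and 484.6 in EGFP tumors (difference 0.07). Pgd, 6-phosphogluconate dehydrogenase, read 277.3 and 348.1 in p62-EGFP tumors, against 266.7 and 505.1 in EGFP tumors, a difference of -0.23 that was 0.21 without EGFP tumor 2.

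The choice of EGFP tumor decided several of these differences. The mean of the p62-EGFP tumors was higher than each EGFP tumor for 18 of the 36 genes and lower than each for 8. For 7 it was higher than EGFP tumor 1 only and for 3 higher than EGFP tumor 2 only. The same counts were not made over all genes, so no lean of these genes can be read from them. Without EGFP tumor 2, 6 of the 36 genes (16.7%) passed, all higher in p62-EGFP tumors, where 9.7% of all genes passed, 5.12% higher and 4.58% lower (limma, Benjamini-Hochberg). The 6 were Gstm5, Gpx1, Mgst1, Gsto1, Abcc1 and Gpx3. Without EGFP tumor 1, 10 passed (27.8%, against 22.2% of all genes, 11.4% higher and 10.8% lower), of which Gstm5, Gstp1 and Cbr1 were higher and Gpx1, Sod2, Pgd, Blvrb, Gclm, Hmox1 and Glrx lower. With 1 EGFP tumor left, the spread in these fits is that of the 2 p62-EGFP tumors, and the EGFP tumor is assumed to vary as little. Without p62-EGFP tumor 1 or without p62-EGFP tumor 2, no gene on the array passed by limma. Without EGFP tumor 1 and without EGFP tumor 2, Gstm5 had the same direction (differences 0.79 and 0.64), and Gpx1 had opposite directions (-0.80 and 0.58).

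**Figure D4:**
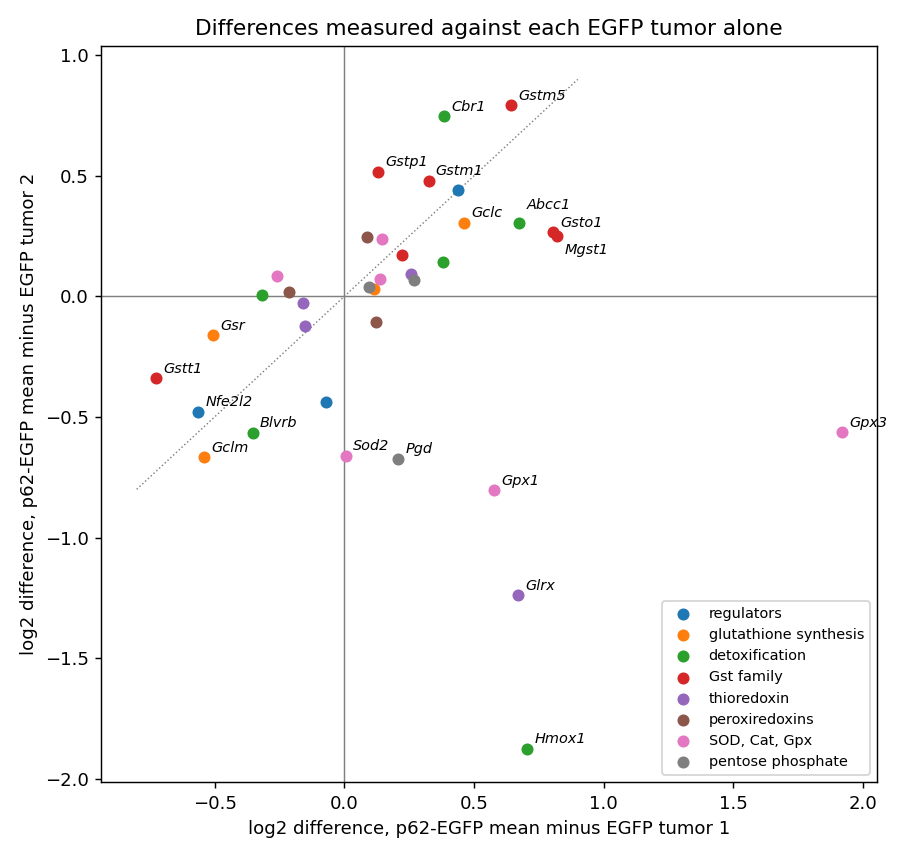
Each point is a tested gene, with the p62-EGFP mean minus EGFP tumor 1 on the horizontal axis and the p62-EGFP mean minus EGFP tumor 2 on the vertical axis, both on the log2 scale. Genes near the dotted diagonal, such as Gstm5 and Gclm, differ alike from both EGFP tumors, whereas Hmox1 (0.71 and -1.88), Glrx (0.67 and -1.24) and Gpx3 (1.92 and -0.56) have opposite signs.

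Among 73 other genes of the pathway, 60 had a probe set, 40 were bright enough to test and 0 passed (limma adjusted p of 0.214 or above). Of the 40, 9 were higher in both p62-EGFP tumors than in both EGFP tumors and 9 were lower, beside 26.4% and 22.1% of all genes, and the median difference was 0.03. Sqstm1, which encodes p62, read 1432.7 and 1687.8 in p62-EGFP tumors, against 975.8 and 1156.1 in EGFP tumors (difference 0.54, SE 0.14, limma adjusted p = 0.235). No source used here says whether its probe set detects the transgene. Like Mafg, Sqstm1 lies on chromosome 11, whose tested genes had a median difference of 0.30. Gpx2, an epithelial glutathione peroxidase and NRF2 target, read 49.0 and 88.1 in p62-EGFP tumors, against 36.0 and 17.7 in EGFP tumors (difference 0.97, SE 0.34, limma adjusted p = 0.306). These were the 2 genes of the 40 higher at an unadjusted p below 0.05, where 8.5% of all genes were. Gpx2 was highest in p62-EGFP tumor 2 and lowest in EGFP tumor 2, as was the epithelial marker sum (2162.4 and 700.7). In p62-EGFP tumor 1 and EGFP tumor 1 that sum was 1471.1 and 1489.8. The part of epithelial content in the Gpx2 values was not tested.

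The 3 genes of the 40 lower at an unadjusted p below 0.05 were Txnip, Slc3a2 and Txn2, where 6.3% of all genes were lower. Txnip, which binds and inhibits thioredoxin, read 909.2 and 960.4 in p62-EGFP tumors, against 1288.6 and 1493.5 in EGFP tumors (difference -0.56, SE 0.12, limma adjusted p = 0.214). Slc3a2, the heavy chain of the cystine transporter, read 383.6 and 376.5 in p62-EGFP tumors, against 503.7 and 630.0 in EGFP tumors (difference -0.55, limma adjusted p = 0.267). Slc7a11, its partner in cystine transport, was too dim to test, between 1.6 and 14.8 on all arrays. Txn2, mitochondrial thioredoxin, read 149.3 and 174.6 in p62-EGFP tumors, against 237.0 and 228.3 in EGFP tumors (difference -0.49, limma adjusted p = 0.301). Bach1, a repressor that competes with NRF2, read 328.1 and 275.1 in p62-EGFP tumors, against 216.3 and 400.9 in EGFP tumors, and overlapped. Of 15 other glutathione transferase genes, 12 had a probe set and 4 were tested, all with differences above 0 (0.04 to 0.73) and 2 with both p62-EGFP tumors above both EGFP tumors. Of 9 other thioredoxin and superoxide genes 8 were tested, with a median difference of -0.17, and 4 had both p62-EGFP tumors below both EGFP tumors and 0 had both above. The medians were 0.02 for 7 other regulators of NRF2 (2 above, 0 below), 0.13 for 11 other NRF2 targets (4 above, 3 below), 0.05 for 5 other glutathione enzymes (0 above, 0 below) and -0.09 for 5 other pentose phosphate genes (1 above, 2 below). Over all genes 26.4% were above and 22.1% below.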

How the data were processed

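Each of the 4 tumors has 1 array, a GeneChip Mouse Genome 430A 2.0, per the labels. The deposited values are linear signal intensities, for which MAS5 is named in the submitters' processing notes, without version or settings. The 2% trimmed mean was 150.04 on every array, so the deposited intensities were used without further scaling. Array intensities carry no read depth, and 4 arrays limit the precision.

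Of 22626 probe sets other than controls, 20380 had 1 gene symbol in the array annotation, 691 had several and 1555 had none; genes were named only from the first kind. Prdx1 was annotated only on probe sets with several symbols. Signals were transformed as log2(signal + 16), and fold changes on this scale understate the change of dim probe sets. The 13576 probe sets with a mean at or above the 40th percentile (5.6) were tested with lmFit and eBayes (trend) of limma 3.58.1 (R 4.3.3). Tests were two-sided and adjusted by Benjamini-Hochberg, and the threshold was 0.05. The fit was tested on simulated data. An exact test of 2 against 2 cannot go below p = 0.333. Genes@Work, named in the series' design text, was not used here.

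Genes named are all listed genes, other pathway genes with an unadjusted p below 0.05 (up to 6 per direction), and Sqstm1, Bach1 and Slc7a11. Members and lists were chosen with earlier results of these data known. Alternatives were quantile normalization, median centring, pseudocounts of 1 and 64, other filters, eBayes without trend, a replicate block, averaging a gene's probe sets, subtracting chromosome medians and leaving out each tumor. Figures were made with Python 3.11.15 and matplotlib 3.10.9.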

Additional observations from a re-analysis of the deposited data

How the results depend on the processing

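No alternative that kept all 4 tumors made a call among the 36 antioxidant genes or the other pathway genes. Leaving out each tumor in turn, calls ran from 0 to 10 of the antioxidant genes and from 0 to 7 of the other pathway genes, the counts at unadjusted p from 1 to 10 higher and from 0 to 9 lower, and the genes below both EGFP tumors from 10 to 12, with fewer tumors to overlap. The share of all genes below rose likewise, from 22.1% to between 30.1% and 42.9%, so that rise was not particular to the antioxidant genes. Calls of the other pathway genes are to be read beside the shares of all genes that passed without each EGFP tumor, given in the Results. No such shares are given for the counts at unadjusted p, so no lean can be read from those. With a tumor left out, medians ran from 0.035 to 0.141 for all antioxidant genes, -0.44 to -0.07 for regulators, -0.24 to -0.023 for glutathione synthesis, 0.043 to 0.38 for detoxification enzymes, 0.27 to 0.50 for the Gst family, -0.15 to 0.054 for thioredoxin and glutaredoxin, -0.065 to 0.11 for peroxiredoxins, -0.25 to 0.14 for dismutases, catalase and glutathione peroxidases and -0.071 to 0.21 for pentose phosphate genes. With a filter at the 60th percentile, which tests fewer genes, medians were -0.33 for glutathione synthesis, 0.17 for detoxification enzymes and 0.041 for thioredoxin and glutaredoxin. With the probe sets of a gene averaged, medians were 0.033 for thioredoxin and glutaredoxin and 0.17 for peroxiredoxins. Relative to chromosome medians, the median was -0.004 for all antioxidant genes and 0.12 for peroxiredoxins, and the differences of Gss (-0.038), Prdx2 (0.12), Prdx4 (-0.03), Cat (-0.004) and Taldo1 (-0.003) changed sign. The count of Gst genes higher in both p62-EGFP tumors was 5 under quantile normalization, median centring, both pseudocounts and both other filters, which were chosen for it after seeing the data; leaving out a tumor could not lower it, and raised the share of all genes above from 26.4% to between 34.8% and 48.3%. Prdx4 also changed sign with quantile normalization (-0.043), and Txnrd1 with probe sets averaged (0.033).

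Leaving out 1 tumor turned the direction of several genes, whose differences ran from -0.087 to 0.23 for Gss, -1.88 to 0.71 for Hmox1, -0.32 to 0.007 for Ephx1, -0.12 to 0.51 for Gstm2, -0.25 to 0.06 for Txnrd1, -0.36 to 0.089 for Srxn1, -1.24 to 0.67 for Glrx, -0.30 to 0.11 for Prdx2, -0.11 to 0.12 for Prdx4, -0.66 to 0.006 for Sod2, -0.80 to 0.58 for Gpx1, -0.56 to 1.92 for Gpx3, -0.26 to 0.084 for Gpx4, -0.67 to 0.21 for Pgd and -0.071 to 0.21 for Taldo1. Other genes kept their direction but moved by over 1.5 times: differences ran from -0.44 to -0.07 for Keap1, -0.51 to -0.16 for Gsr, 0.074 to 0.45 for Nqo1, 0.30 to 0.68 for Abcc1, 0.13 to 0.52 for Gstp1, 0.27 to 0.81 for Gsto1, -0.72 to -0.34 for Gstt1, 0.25 to 0.82 for Mgst1, 0.091 to 0.26 for Txn1, 0.088 to 0.25 for Prdx3, 0.04 to 0.34 for Sod1, 0.05 to 0.16 for Cat and 0.07 to 0.27 for Tkt. Beyond what the construction of an alternative shows, the cause was not tested. The labels number tumors 1 and 2 in both groups without saying that a number pairs them, and the deviations of same-numbered tumors had a correlation of 0.08 across probe sets. With the replicate block 0 antioxidant genes were called, and 18 genes were called on the whole array, against 4 without it. Signals near the background, as for Gsta4 and Slc7a11, limit what can be said of dim genes.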
